A study of Mus musculus with 10 samples.

Results

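Genes of the canonical Wnt pathway were described in portal tracts of 1-week-old mouse liver: 42 listed genes that encode Wnt and R-spondin ligands, their receptors, secreted antagonists, the beta-catenin machinery and target genes. Each gene was read through its probe set with exactly 1 gene symbol, the one with the highest mean over the 10 arrays where a gene had several. This gave values for 41 of the 42 genes, out of 22180 genes measured, and Tcf7 was not analysed here. Portal tracts hold the bile ducts and the incoming vessels of the liver. Laser capture took 12 to 20 of them from frozen liver for each replicate, and their RNA was read on single-colour arrays. There were 5 control arrays, labelled as strain C57Bl/6J, and 5 arrays of mice labelled Jag1+/-Rfng+/-, which carry 1 normal copy each of Jag1, a ligand of Notch receptors, and Rfng, a glycosyltransferase that modifies Notch. The labels give no strain for the Jag1+/-Rfng+/- mice, do not say what kind of alleles these are, and do not tie each replicate to a mouse of its own. The p-values therefore speak of variation among these replicates, which may be technical.

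Wnt proteins are lipid-modified ligands that bring a Frizzled receptor together with an LRP co-receptor, which stops the Axin and APC complex from destroying beta-catenin, so that beta-catenin can act with TCF/LEF factors on target genes. R-spondins, through LGR receptors, keep the ubiquitin ligases ZNRF3 and RNF43 from removing Frizzled receptors, while secreted antagonists bind either the Wnts or the co-receptors. In liver the pathway is known for zonation: endothelial cells of the central vein, away from the portal tract, make Wnt2, Wnt9b and Rspo3, and the hepatocytes beside them keep Axin2, Lgr5, Rnf43, Tbx3 and the glutamine synthetase gene Glul on.

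TCF/LEF factors bind DNA at a short core, CTTTGAT or CTTTGAA. Of the 41 genes, 26 had an entry in the RefSeq promoter table (build GRCm38.p6), with 35 windows of 300 bases. The core in either form, on either strand, was found in 3 of these windows (8.57%), against 8.65% of all 32851 windows, so the letters were about as frequent as elsewhere. The 3 genes were Sp5, a transcription factor gene known as a direct Wnt target, and Wnt5b and Wnt11, the ligand genes with the lowest p-values in the comparison of the groups given further on. The 250 bases before each start are shown 5′ to 3′, with the core in capitals. The match in Wnt11 is the reverse complement, ATCAAAG. The first base of the core lies at -104 from the start in Sp5, -71 in Wnt5b and -51 in Wnt11. The windows are Sp5 at chr2:70474673-70474922 (plus strand), Wnt5b at chr6:119449387-119449636 (minus strand) and Wnt11 at chr7:98834862-98835111 (plus strand).
Sp5: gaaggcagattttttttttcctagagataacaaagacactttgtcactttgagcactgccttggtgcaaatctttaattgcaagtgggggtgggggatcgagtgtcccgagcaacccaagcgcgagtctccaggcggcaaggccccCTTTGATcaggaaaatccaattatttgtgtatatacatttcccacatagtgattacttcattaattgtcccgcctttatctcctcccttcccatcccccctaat
Wnt5b: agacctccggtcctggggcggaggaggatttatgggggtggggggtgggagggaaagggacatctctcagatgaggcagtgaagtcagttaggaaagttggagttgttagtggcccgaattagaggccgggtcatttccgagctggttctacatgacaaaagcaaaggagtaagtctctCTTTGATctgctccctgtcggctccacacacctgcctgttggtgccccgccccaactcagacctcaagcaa
Wnt11: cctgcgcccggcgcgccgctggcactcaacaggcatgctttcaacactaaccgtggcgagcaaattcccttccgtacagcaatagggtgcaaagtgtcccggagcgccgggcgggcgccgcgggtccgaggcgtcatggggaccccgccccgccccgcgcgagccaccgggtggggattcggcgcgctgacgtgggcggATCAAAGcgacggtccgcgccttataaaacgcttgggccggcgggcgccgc

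All values below are log2 expression values of the arrays. Arrays have no read depth, and their number limits the precision. The 1105 olfactory receptor genes, presumed absent from liver, read at a median of 1.85 and a 95th percentile of 3.21, so a reading up to 3.21 is called the low range here. Jag1+/-Rfng+/- replicate 5, whose sample name carries the suffix excl, stood apart from the other arrays, with correlations of 0.956 to 0.963 against at least 0.969 among the rest. Both targeted genes had lower signals in Jag1+/-Rfng+/-, Rfng by -0.46 log2 with no overlap of the groups (two-sided exact permutation p = 0.00794, limma adjusted p = 0.416) and Jag1 by -1.33 with overlap (exact permutation p = 0.0556, limma adjusted p = 0.559). Markers of the tissue were read on every array: the mean of the biliary epithelium list lay between 4.56 and 5.67 in controls and 4.08 and 4.79 in Jag1+/-Rfng+/-, and that of the portal fibroblast list between 5.42 and 6.35 in controls and 4.72 and 5.98 in Jag1+/-Rfng+/-. Of 8 measured biliary genes 1 read higher in Jag1+/-Rfng+/-, by 0.80 and with an unadjusted p under 0.05. The other 7 read lower, and 5 of these had an unadjusted p under 0.05. The median of the 8 was -0.75, and 0 passed the adjusted threshold. Of 15 measured portal fibroblast genes 12 read lower (median -0.69). An unadjusted p under 0.05 was found for 7, all 7 lower, and 0 passed the adjusted threshold. Over all genes, 2.98% were higher and 3.79% lower at an unadjusted p under 0.05. The part of the biliary shift in the lower readings of Fzd8, Fzd1, Sfrp1, Ctnnb1 and Wls given further on was not tested. Hepatocyte markers were read as well, with a list mean of 9.62 to 10.00, and the mean of 11 genes of pericentral hepatocytes lay between 6.73 and 8.48.

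No Wnt pathway gene passed the test between the groups. In the limma fit across all genes 0 of the 41 had an adjusted p under 0.05 (lowest adjusted p = 0.608), where 2 of 22180 genes passed (0.00902%). At an unadjusted p under 0.05 there were 5 (12.2%), against 6.76% of all genes. Wnt5b and Wnt11 were the 2 higher in Jag1+/-Rfng+/- (2.98% of all genes) and Fzd1, Fzd8 and Ctnnb1 the 3 lower (3.79% of all genes). Groups did not overlap for 2 genes, Wnt5b and Ctnnb1, against 1.38% of all genes. The count of 5 was 3 without control replicate 1 or 2, or without Jag1+/-Rfng+/- replicate 2 or 5, and 2 without Jag1+/-Rfng+/- replicate 3. Sample names carry a number of unstated meaning, and 1 such number is borne by 7 arrays (control replicates 2 to 4 and Jag1+/-Rfng+/- replicates 2 to 5). Within those 7 the count was 1, Wnt11.

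By role, over all 10 arrays, the 8 ligand genes leaned one way and the medians of the other classes lay closer to 0. All 8 ligand genes, R-spondins included, read higher in Jag1+/-Rfng+/-, with a median difference of 0.23 log2, where 48.5% of all genes read higher and the median of all genes was -0.0055. Without Jag1+/-Rfng+/- replicate 5, and also with the portal fibroblast list as a covariate, 5 of 8 ligands read higher. A separate list of 16 other ligand genes, which also holds Wls, leaned less. There 10 read higher (median 0.061), and 13 of the 16 had means in the low range. Of the 10 receptor genes 3 read higher (median -0.030), and 5 did after quantile normalization. Without Jag1+/-Rfng+/- replicate 1 the receptor median was 0.0029, with 5 of 10 higher. Of 9 secreted antagonists, Notum included, 5 read higher (median 0.016), but without control 3 only 3 did (median -0.12), and the sign of this median turned with several other single arrays left out. Of 9 target genes 8 read higher (median 0.095), and 5 did without Jag1+/-Rfng+/- replicate 2 (median 0.033). Within the 7 arrays with the shared number the target median was 0.33, above the ligand median of 0.26. Of the 41 genes, 18 kept their direction under all alternatives in which they were tested, out of 22 tried. Wnt11, Sfrp5 and Frzb, which are among the 18, were tested in 21. No class was tested as a class, and among ligands the differences were at most 0.39 except for Rspo3.

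**Figure D1:**
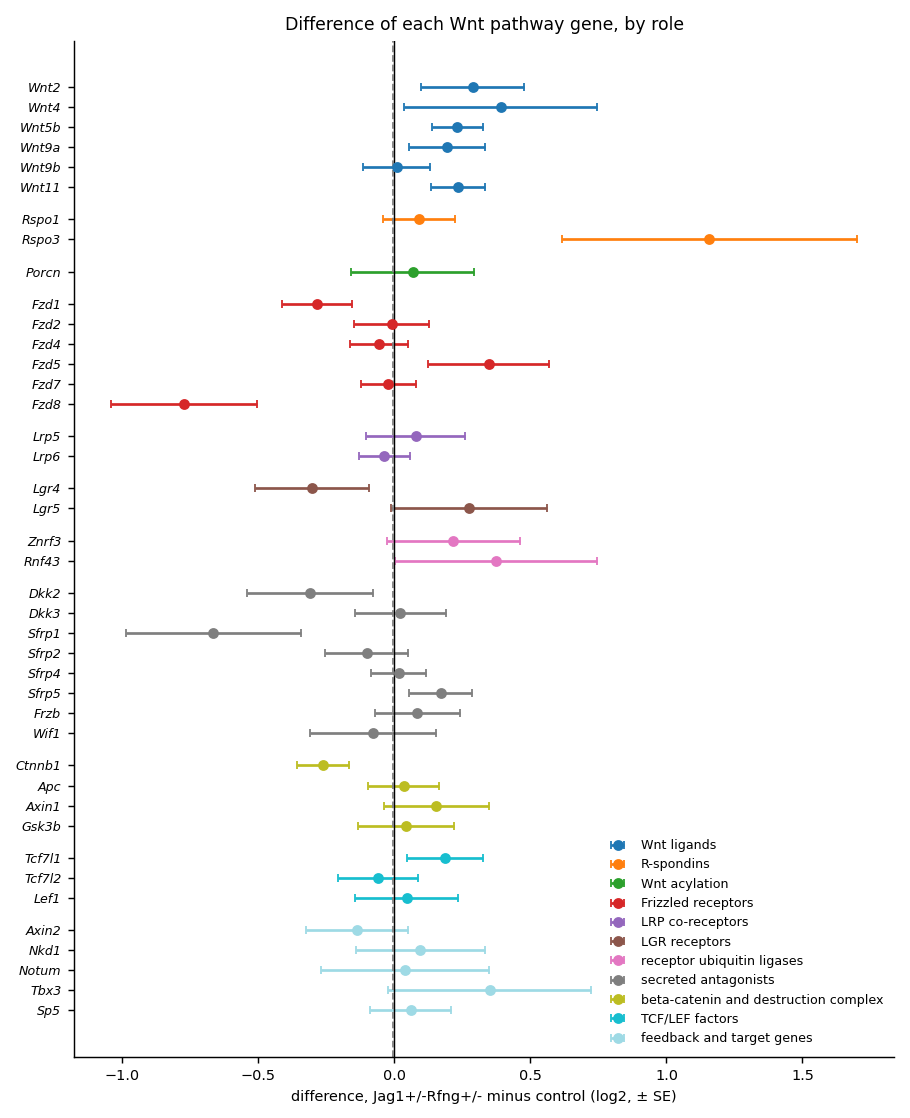
Difference between Jag1+/-Rfng+/- and control arrays (log2, horizontal axis, bars are SE from the limma fit) for each of the 41 genes (vertical axis), coloured by role, with 5 arrays per group. The dashed grey line is the median of all genes (-0.0055). Rspo3 (1.16) lies farthest to the right and Fzd8 (-0.77) and Sfrp1 (-0.67) farthest to the left.

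Among the Wnt ligands the differences were small, and Wnt5b and Wnt11 read in or close to the low range. Wnt2 and Wnt9a had 2 and 3 of 10 arrays in the low range, and Wnt4 and Wnt9b had 0. Wnt5b (probe set 17470313, chromosome 6), a ligand mostly studied outside the beta-catenin branch, read 2.96, 3.20, 3.15, 2.97 and 3.20 on controls 1 to 5 and 3.32, 3.25, 3.42, 3.38 and 3.27 on Jag1+/-Rfng+/- replicates 1 to 5. Every Jag1+/-Rfng+/- array lay above every control array, and all 5 controls lay in the low range. The difference was 0.23 ± 0.09 log2 (SE), 1.17-fold (limma adjusted p = 0.672, exact permutation p = 0.00794, the smallest that the 252 splits can give). Wnt11 (probe set 17480500, chromosome 7), which acts in tissue movements and early development, read 2.96, 2.63, 2.74, 2.77 and 2.60 in controls and 2.80, 3.05, 3.03, 2.95 and 3.03 in Jag1+/-Rfng+/-. All 10 of these readings were in the low range, and control 1 overlapped the other group. The difference was 0.23 ± 0.10 (SE, limma adjusted p = 0.698, exact permutation p = 0.0238).

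Wnt2 (probe set 17464977, chromosome 6), a Wnt of liver endothelium, read 3.20, 3.31, 2.96, 3.62 and 3.93 in controls and 3.77, 3.26, 4.07, 3.63 and 3.72 in Jag1+/-Rfng+/-. Control 3 was lowest, control 5 lay among the Jag1+/-Rfng+/- arrays, and the groups overlapped. The difference was 0.29 ± 0.19 (SE, limma adjusted p = 0.825, exact permutation p = 0.214). Wnt9b, the other central vein Wnt, differed by 0.0083, and Wnt9a by 0.19, which was 0.066 without Jag1+/-Rfng+/- replicate 2. Wnt4 differed by 0.39, which rested on replicate 5 alone: it read 6.05 there and 3.80 to 4.22 on the other 9 arrays, and without it the difference was -0.021. The erythroid list, of which 3 of 9 genes were measured, also stood out on replicate 5, with a mean of 7.66 against 4.85 to 5.58 elsewhere, and its part in the Wnt4 reading was not tested. Porcn, which encodes the enzyme that adds the lipid to Wnts, differed by 0.068.

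Rspo3 had the largest difference and the widest spread of the 41 genes. Rspo3 (probe set 17240012, chromosome 10), the R-spondin of central vein endothelium, read 5.36, 5.56, 4.00, 7.23 and 7.16 on controls 1 to 5 and 6.90, 6.49, 7.53, 7.66 and 6.51 on Jag1+/-Rfng+/- replicates 1 to 5. The Jag1+/-Rfng+/- arrays were all high, while the controls split into 3 low readings and 2 that lay within the Jag1+/-Rfng+/- range. Controls averaged 5.86 ± 1.36 and Jag1+/-Rfng+/- 7.02 ± 0.55 (SD, n = 5 each). The difference of 1.16 ± 0.54 (SE), 2.23-fold, did not pass (limma adjusted p = 0.739, exact permutation p = 0.119). Without control 3 it was 0.69, and within the 7 arrays with the shared number 1.45. The mean of 8 sinusoidal endothelium markers was also lowest on control 3. It read 6.79, 7.10, 6.62, 7.25 and 7.16 in controls and 7.23, 7.17, 7.18, 7.22 and 6.93 in Jag1+/-Rfng+/-, and 7 of the 8 genes read higher in Jag1+/-Rfng+/- (median 0.18). The mean of 12 vascular endothelium markers was instead highest on control 3. Its values were 6.04, 6.42, 6.58, 5.91 and 5.87 in controls and 5.81, 6.04, 6.04, 6.25 and 5.90 in Jag1+/-Rfng+/-. Of these 12 genes 6 read higher in Jag1+/-Rfng+/- (median -0.053). The part of either list in the Rspo3 difference was not tested. Rspo1, which encodes another R-spondin, differed by 0.091.

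**Figure D2:**
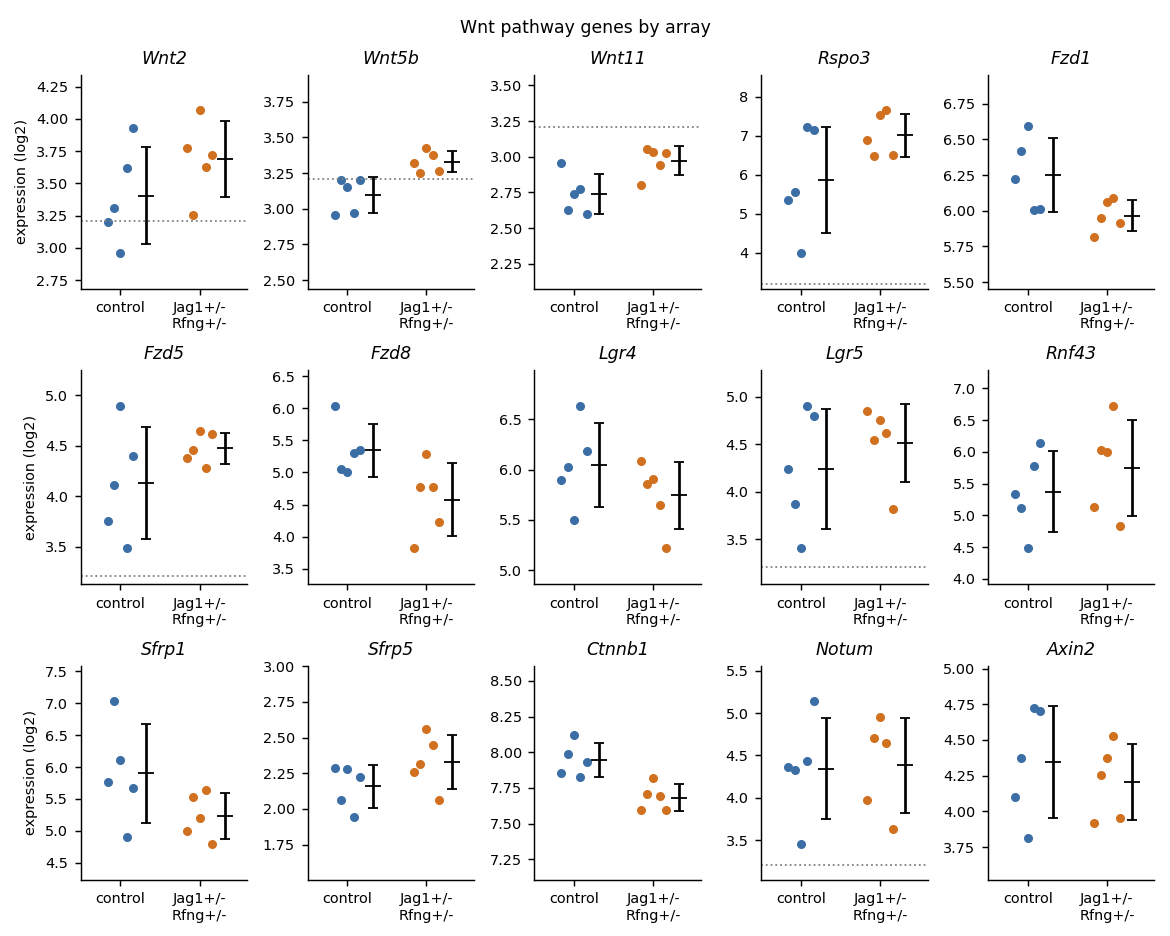
Expression (log2, vertical axis, scaled per panel) on each of the 5 control (blue) and 5 Jag1+/-Rfng+/- (orange) arrays, with the mean and SD in black, for the 13 genes described by array and for Notum and Axin2. The dotted grey line marks 3.21, the upper end of the low range, where it falls within the panel. Groups lie apart for Wnt5b and Ctnnb1, and the controls of Rspo3 span 4.00 to 7.23.

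Among Frizzled receptors, Fzd8 and Fzd1 read lower and Fzd5 higher. Fzd8 (probe set 17348276, chromosome 18) read 6.04, 5.06, 5.00, 5.30 and 5.35 in controls and 3.82, 4.77, 5.28, 4.77 and 4.23 in Jag1+/-Rfng+/-. Replicate 3 alone reached into the control range, and replicates 1 and 5 were lowest. The difference was -0.77 ± 0.27 (SE), 1.71-fold lower (limma adjusted p = 0.608, exact permutation p = 0.0238). Within the 7 arrays with the shared number it was -0.35, and -0.18 when replicate 5 was also left out.

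Fzd1 (probe set 17445325, chromosome 5) read 6.22, 6.42, 6.59, 6.00 and 6.01 in controls and 5.82, 5.95, 6.06, 6.09 and 5.92 in Jag1+/-Rfng+/-. Controls 1 to 3 lay above all other arrays, and controls 4 and 5 lay among the Jag1+/-Rfng+/- arrays. The difference was -0.29 ± 0.13 (SE, limma adjusted p = 0.722, exact permutation p = 0.0556). Fzd5 (probe set 17223793, chromosome 1) read 3.76, 4.11, 4.90, 3.48 and 4.40 in controls and 4.38, 4.46, 4.65, 4.28 and 4.61 in Jag1+/-Rfng+/-. Its Jag1+/-Rfng+/- readings fell inside the wider control range, with a difference of 0.35 ± 0.22 (SE, limma adjusted p = 0.817, exact permutation p = 0.230). Fzd4, a Frizzled of endothelium, differed by -0.056, Fzd7 by -0.022 and Fzd2, on 10 of 10 arrays in the low range, by -0.011. The co-receptor genes Lrp5 and Lrp6 differed by 0.077 and -0.037. The second, dimmer probe set of Lrp6 differed by -0.24.

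Of the LGR receptor genes, Lgr4 read lower and Lgr5 higher, and both ubiquitin ligase genes read higher. Lgr4 (probe set 17374098, chromosome 2), a widely expressed receptor of R-spondins, read 5.90, 6.02, 5.50, 6.63 and 6.19 in controls and 6.09, 5.85, 5.91, 5.65 and 5.22 in Jag1+/-Rfng+/-. The groups overlapped, and replicate 5 was lowest. The difference was -0.30 ± 0.21 (SE, limma adjusted p = 0.830, exact permutation p = 0.254). Lgr5 (probe set 17237400, chromosome 10), both a receptor and a target of the pathway, read 4.24, 3.87, 3.40, 4.91 and 4.80 in controls and 4.85, 4.54, 4.75, 4.62 and 3.81 in Jag1+/-Rfng+/-. Control 3 was lowest, as for Rspo3, and controls 4 and 5 were among the highest. The difference was 0.27 ± 0.29 (SE, limma adjusted p = 0.881, exact permutation p = 0.429), or 0.063 without control 3. The dimmer Lgr5 probe set differed by 0.059. Rnf43 (probe set 17254809, chromosome 11) read 5.34, 5.12, 4.48, 5.77 and 6.15 in controls and 5.14, 6.03, 6.00, 6.73 and 4.83 in Jag1+/-Rfng+/-. It was lowest on control 3 and on replicate 5, and the groups overlapped (0.37 ± 0.37, SE, limma adjusted p = 0.879, exact permutation p = 0.413). Within the 3 against 3 arrays with the shared number and no replicate 5, Rnf43 differed by 1.13 (limma adjusted p = 0.846), whereas over 9 arrays it differed by 0.15 without control 3 and by 0.13 without Jag1+/-Rfng+/- replicate 4. Znrf3, the partner ligase, differed by 0.22, which was 0.012 without control 1 and 0.37 without Jag1+/-Rfng+/- replicate 5.

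Of the secreted antagonists, Sfrp1 carried the largest difference. Sfrp1 (probe set 17500068, chromosome 8), a soluble protein with a Frizzled-like Wnt-binding domain, read 5.77, 7.03, 6.11, 4.91 and 5.68 in controls and 5.00, 5.52, 5.21, 5.65 and 4.79 in Jag1+/-Rfng+/-. Control 2 was highest, control 4 lay at the low end of the Jag1+/-Rfng+/- arrays, and the other 3 controls lay above all of them. The difference was -0.67 ± 0.32 (SE), 1.59-fold lower (limma adjusted p = 0.743, exact permutation p = 0.111). Without control 2 it was -0.38 and without control 4 -0.91. Dkk2, which binds the LRP co-receptors, differed by -0.31, with controls from 2.65 to 3.99 and Jag1+/-Rfng+/- from 2.94 to 3.28. For Dkk2, 5 of 10 arrays were in the low range. Dkk3, a divergent Dickkopf protein, differed by 0.021, Wif1, a Wnt-binding inhibitor, by -0.078, and Sfrp2 by -0.10, with its dimmer probe set at -0.37. Sfrp5 (probe set 17364820, chromosome 19) read 2.29, 2.06, 2.28, 1.95 and 2.22 in controls and 2.26, 2.32, 2.56, 2.45 and 2.06 in Jag1+/-Rfng+/-. These readings, all in the low range, differed by 0.17 ± 0.12 (SE, limma adjusted p = 0.830, exact permutation p = 0.143). Sfrp4 and Frzb, another Frizzled-related inhibitor, were also in the low range on 10 of 10 arrays and differed by 0.016 and 0.085.

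Inside the cell, the beta-catenin gene itself read lower with no overlap. Ctnnb1 (probe set 17523257, chromosome 9) read 7.85, 7.99, 8.12, 7.83 and 7.93 in controls and 7.59, 7.71, 7.82, 7.70 and 7.59 in Jag1+/-Rfng+/-. Every control lay above every Jag1+/-Rfng+/- array, with control 4 at 7.83 and replicate 3 at 7.82 the closest. The difference was small, -0.26 ± 0.09 (SE), 1.20-fold lower, and did not pass (limma adjusted p = 0.615, exact permutation p = 0.00794). Within the 7 arrays with the shared number it was -0.27. The genes of the destruction complex, Apc, Axin1 and the kinase gene Gsk3b, differed by 0.034, 0.15 and 0.043. Of the TCF/LEF factors, Tcf7l1 differed by 0.19, Tcf7l2, the TCF of adult hepatocytes, by -0.061 and Lef1 by 0.045.

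The target and feedback genes differed little between the groups but widely between arrays. Axin2, a scaffold protein that limits the signal and a common reporter of it, differed by -0.14, and its dimmer probe set by 0.10, so its direction is uncertain. Notum, a secreted enzyme that removes the lipid from Wnts, differed by 0.039, Nkd1, an inhibitor that binds Dishevelled, by 0.095, Sp5 by 0.060 and Tbx3, a transcription factor of pericentral hepatocytes, by 0.35. The Tbx3 difference was 0.018 without control 3 and 0.59 without control 4. The dimmer Notum probe set, with a mean of 2.51 in the low range, differed by 0.0091. Within the controls, Tbx3 ran from 3.56 on control 3 to 5.86 on control 4, Notum from 3.45 on control 3 to 5.14 on control 5, and Axin2 from 3.82 on control 3 to 4.73 on control 4. Control 3 held the lowest reading of 11 of the 41 genes, more than any other array, and these included Rspo3, Wnt2, Wnt9b, Lgr5, Rnf43, Axin2, Notum, Tbx3, Sp5 and Wif1. Replicate 5 held the lowest of 7.

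**Figure D3:**
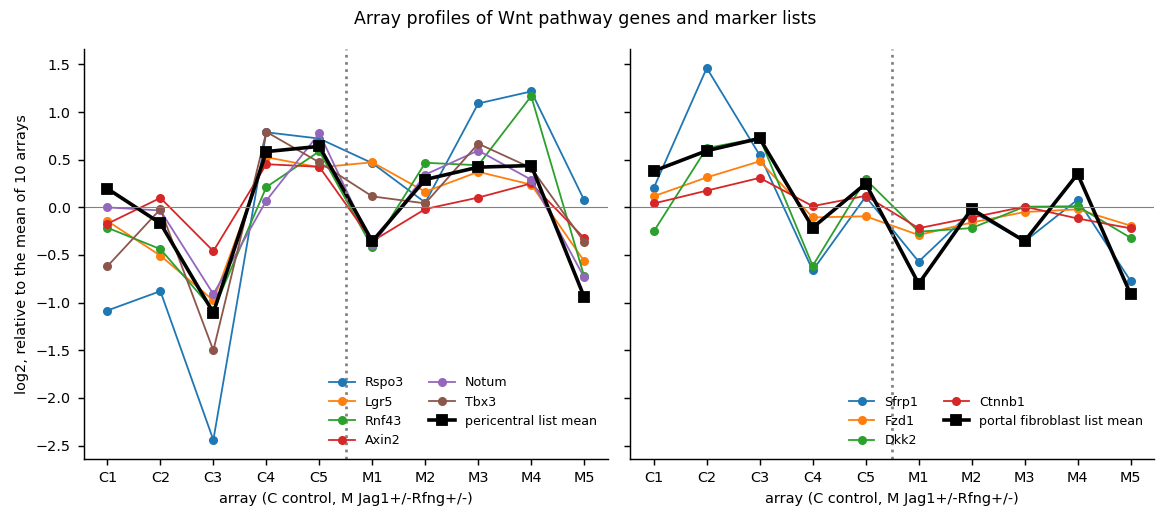
Level on each array relative to the gene's mean over the 10 arrays (log2, vertical axis), for controls (C1 to C5) and Jag1+/-Rfng+/- (M1 to M5). Left, Rspo3 and target genes with the mean of the pericentral hepatocyte list in black: all dip on control 3, and all except Rspo3 dip below their mean on replicate 5. Right, Sfrp1, Fzd1, Dkk2 and Ctnnb1 beside the portal fibroblast list mean, highest on controls 2 and 3.

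The arrays on which Lgr5, Rnf43, Axin2, Notum and Tbx3 were low were also those on which genes of pericentral hepatocytes were low. The mean of 11 such genes, a list that holds none of the 41, was 8.03, 7.67, 6.73, 8.42 and 8.48 on controls 1 to 5 and 7.48, 8.13, 8.26, 8.28 and 6.90 on Jag1+/-Rfng+/- replicates 1 to 5. Control 3 and replicate 5 were lowest and the group means were alike, 7.87 ± 0.71 and 7.81 ± 0.61 (SD, n = 5 each). Glul read 9.22 on control 3 against 10.58 to 10.91 on the other controls, and Cyp2e1, a pericentral cytochrome P450, 9.29 against 10.45 to 11.01. In bulk samples, fewer cells of a type and less RNA per cell cannot be told apart.

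Each of the 41 genes was set against this list and against the portal fibroblast list over the 10 arrays, 82 relations in all, with Benjamini-Hochberg adjustment. By Pearson's r over the 10 arrays Notum followed the pericentral list most closely, and by Spearman's rho Axin2 did. Notum gave r = 0.931 (permutation p = 0.00014, adjusted 0.0115) and rho = 0.891 (permutation p = 0.00112, adjusted 0.0230). Without control 3 and replicate 5, the arrays farthest from the median, r was 0.799, and within the 7 arrays with the shared number 0.933. Rnf43 gave r = 0.876 (permutation p = 0.00048, adjusted 0.0197) and rho = 0.879 (permutation p = 0.00181, adjusted 0.0297), with r = 0.764 without those arrays and 0.888 within the 7. Axin2 gave r = 0.866 (permutation p = 0.00115, adjusted 0.0310) and rho = 0.939 (permutation p = 0.00017, adjusted 0.0078), with r = 0.809 and 0.919. With each group's mean taken out, r for these 3 genes was 0.878 to 0.935.

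Lgr5 and Tbx3 lay just outside the threshold. For Lgr5 r was 0.814 (permutation p = 0.00571, adjusted 0.0596) and rho 0.709 (permutation p = 0.0269, adjusted 0.245). For Tbx3 r was 0.798 (permutation p = 0.00581, adjusted 0.0596) and rho 0.818 (permutation p = 0.00591, adjusted 0.0715). Within the 7 arrays with the shared number, which include control 3 and replicate 5, r was 0.951 for Lgr5 and 0.907 for Tbx3. With each group's mean taken out r was 0.862 for Lgr5 and 0.843 for Tbx3. Without control 3 and replicate 5 r was 0.431 for Lgr5 and 0.540 for Tbx3, so these relations leaned on those arrays. Rspo3 gave r = 0.669 (permutation p = 0.0322, adjusted 0.240) and rho = 0.697 (permutation p = 0.0300, adjusted 0.246), and r = 0.509 without them. Lgr4 gave a slightly higher r of 0.682 (permutation p = 0.0285, adjusted 0.234), and 0.190 without control 3 and replicate 5. The antagonist gene Dkk3 gave r = 0.636 (permutation p = 0.0446, adjusted 0.305), and -0.417 without those arrays. Nkd1, also counted as a target, did not follow the list (r = -0.246, permutation p = 0.496, adjusted 0.847, and rho = -0.358, permutation p = 0.314, adjusted 0.696). Sp5 did not pass, with r = 0.637 (permutation p = 0.0504, adjusted 0.313) and rho = 0.442 (permutation p = 0.203, adjusted 0.623). Neither did Znrf3 (r = 0.342, permutation p = 0.338, adjusted 0.791) or Lef1 (r = 0.119, permutation p = 0.742, adjusted 0.932).

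**Figure D4:**
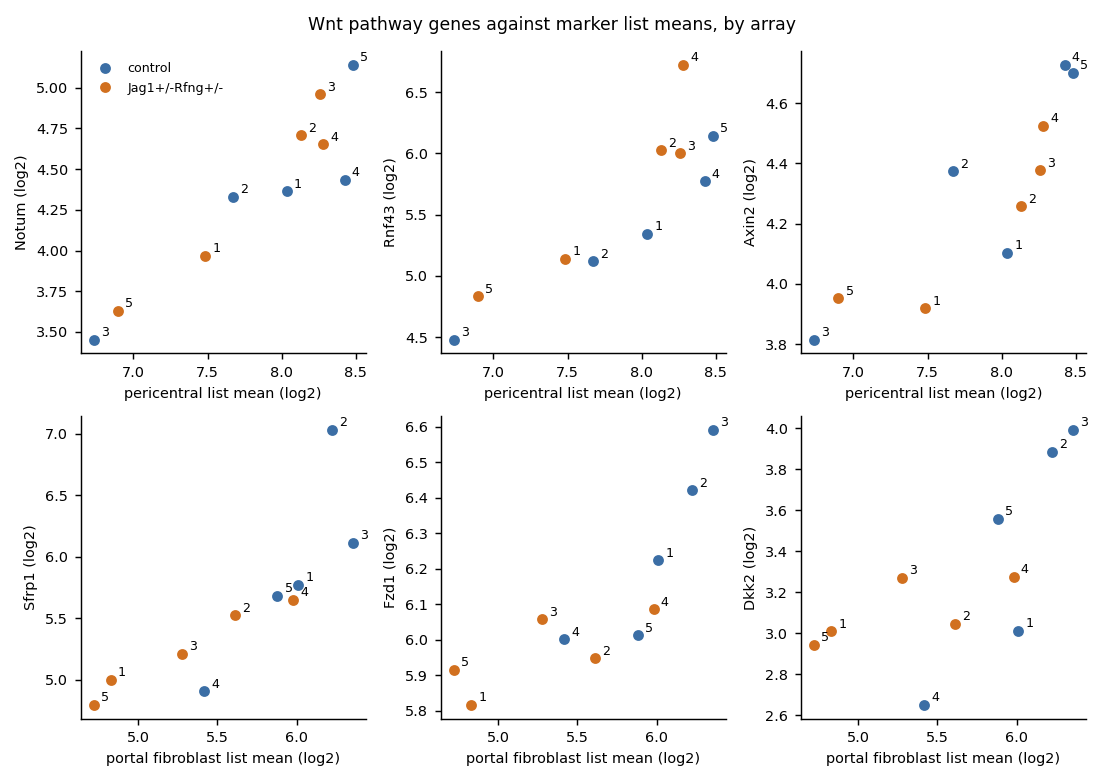
Expression of 6 genes (log2, vertical axes) against the mean of a marker list (log2, horizontal axes), 1 point per array, numbered by replicate, controls in blue and Jag1+/-Rfng+/- in orange. Top, Notum, Rnf43 and Axin2 against the pericentral hepatocyte list, r = 0.931, 0.876 and 0.866. Bottom, Sfrp1, Fzd1 and Dkk2 against the portal fibroblast list, r = 0.839, 0.825 and 0.692.

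Sfrp1, and by rank Fzd1, followed the portal fibroblast list. That list, of which 15 of 16 genes were measured, had a mean of 6.01, 6.22, 6.35, 5.42 and 5.88 on controls 1 to 5 and 4.83, 5.61, 5.28, 5.98 and 4.72 on Jag1+/-Rfng+/- replicates 1 to 5, lower in Jag1+/-Rfng+/- by -0.69 with overlap. Sfrp1 gave r = 0.839 (permutation p = 0.00151, adjusted 0.0310) and rho = 0.939 (permutation p = 0.00019, adjusted 0.0078). Without Jag1+/-Rfng+/- replicates 1 and 5, the arrays farthest from the median, r was 0.814, and within the 7 arrays with the shared number 0.843. Fzd1 gave r = 0.825 (permutation p = 0.00385, adjusted 0.0596) and rho = 0.903 (permutation p = 0.00092, adjusted 0.0230), with r = 0.804 and 0.830.

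Ctnnb1 gave r = 0.812 (permutation p = 0.00480, adjusted 0.0596) and rho = 0.818 (permutation p = 0.00610, adjusted 0.0715), with r = 0.615 without the farthest arrays. The permutations ran across both groups, so these p-values also take in the difference that gene and list share between the groups. With each group's mean taken out, r was 0.768 for Sfrp1, 0.705 for Fzd1 and 0.641 for Ctnnb1, and no p-value was computed. Dkk2 gave r = 0.692 (permutation p = 0.0283, adjusted 0.234) and rho = 0.758 (permutation p = 0.0149, adjusted 0.153). Because the list itself differed between the groups, the differences were also taken with its mean as a covariate. The difference of Sfrp1 was then 0.039, that of Fzd1 -0.072, that of Ctnnb1 -0.16, that of Fzd8 -0.52 and that of Rspo3 0.70. The targeted gene Jag1 shrank as well with this covariate, from -1.33 to -0.26. Whether the covariate took out cell content or an effect of genotype was not tested. Wnt5b differed by 0.30 in that fit. With the mean of the pericentral list as a covariate, chosen after the data were seen, Rspo3 differed by 1.23 and Rnf43 by 0.43, and neither passed (limma adjusted p = 0.384 and 0.607).

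Other genes of the pathway were read from lists grouped by function. Of 76 measured genes 0 passed the adjusted threshold (lowest adjusted p = 0.253), and 8 had an unadjusted p under 0.05, all 8 lower in Jag1+/-Rfng+/- (3.79% of all genes were). Wls, which encodes the carrier that brings Wnts to the cell surface, had the lowest p. It read 6.05, 5.82, 6.22, 5.64 and 5.91 in controls and 5.28, 4.93, 5.30, 5.57 and 4.99 in Jag1+/-Rfng+/-, with no overlap. The difference was -0.71 ± 0.15 (SE), 1.64-fold lower (limma adjusted p = 0.253, exact permutation p = 0.00794), -0.69 within the 7 arrays with the shared number and -0.50 with the portal fibroblast covariate.

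Among 13 other receptor genes 11 read lower. Ror1, a receptor tyrosine kinase for Wnts, was 2.01-fold lower (limma adjusted p = 0.480), with controls from 3.95 to 5.60 and Jag1+/-Rfng+/- from 3.29 to 4.39. Kremen1, which works with Dickkopf proteins on the LRP co-receptors, was 1.26-fold lower with groups that did not overlap (limma adjusted p = 0.564). Of 27 intracellular components 5 had an unadjusted p under 0.05, against 6.76% of all genes. Among them were Dact1 and Dact3, which bind Dishevelled (-0.55 and -0.42), the casein kinase gene Csnk1a1 (-0.30) and Pygo1, a partner of beta-catenin in the nucleus (-0.59). Of 11 pericentral hepatocyte genes 0 had an unadjusted p under 0.05. Glul differed by 0.049, Cyp2e1 by -0.027, Cyp1a2 by -0.28 and Lect2, a secreted protein of pericentral hepatocytes, by -0.76, with replicate 5 at 6.13.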

How the data were processed

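The deposited table gives a log2 value per array for each of 33649 probe sets. The submitters' processing notes name RMA and Partek 6.6 without saying what each did. No scanner files were read, and no detection calls were made. The platform annotation gives exactly 1 symbol for 23521 of them, more than 1 for 1814 and no symbol for 8314. Of the first group, 23328 matched a RefSeq gene by Entrez identifier (GRCm38.p6), and 22180 genes resulted. The table held 0 columns of no sample, and 0 pairs of arrays were identical.

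The comparison used lmFit and eBayes of limma 3.58.1 (R 4.3.3) without covariates. Its two-sided p-values were adjusted over all genes by Benjamini-Hochberg, with 0.05 as threshold. The fit was checked on simulated data. The exact permutation test used all 252 splits of the arrays, two-sided. Permutation p-values of correlations used random pairings, two-sided. The members and lists were chosen with earlier results of these data known.

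Every gene is named with its difference. Those given by array had an unadjusted p under 0.05 or groups that did not overlap, were filled to 10 by lowest p, and include the 2 of lowest p in each class, 13 in all. Of other pathway genes, up to 4 per list at an unadjusted p under 0.05 are named.

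Each array was left out in turn, and further alternatives were the replicate number as a block, only the 7 arrays with a common sample-name number, array weights, other eBayes settings, other normalizations, a filter on low genes, the mean of probe sets and list means as covariates. The labels do not say whether replicate numbers pair the arrays, and the correlations of same-numbered arrays given below cannot settle it.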

Additional observations from a re-analysis of the deposited data

Results flagged for a closer look

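Groups of 5 arrays were searched for a reading far from the other 4, in 54 genes and 108 groups, and 7 were found; chance gives about 1 in 20. Of these, 4 were on Jag1+/-Rfng+/- replicate 5: Wnt4 was highest there (6.05, the nearest array 4.22), and Lrp5 (7.02, nearest 7.67), Znrf3 (4.47, nearest 5.15) and Tcf7l2 (6.43, nearest 6.83) were lowest. Wnt9a was highest on Jag1+/-Rfng+/- replicate 2 (3.91, nearest 3.32). Nkd1 was lowest on control replicate 4 (3.21, nearest 4.23). Glul was lowest on control replicate 3 (9.22, nearest 10.58).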

How the results depend on the processing

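Under 22 alternatives, 0 of the 41 genes passed the adjusted threshold in any, with a lowest adjusted p of 0.253 (Sfrp1 with the hepatocyte covariate). Of the 13 genes given by array, 12 kept their direction in all alternatives in which they were tested; Sfrp1 turned to 0.039 with the portal fibroblast covariate. The count of Wnt genes at an unadjusted p under 0.05 was 5, 2 to 7 when 1 array was left out, 3 with the replicate block, 1 within the arrays with the shared number, 3 among genes above the low range and 3 with the portal fibroblast covariate. The count of all genes past the adjusted threshold was 2, 2 to 6 when 1 array was left out, 0 within the arrays with the shared number without replicate 5, 5 with array weights, 11 with trend and robust eBayes, 10 among genes above the low range, 15 with the hepatocyte covariate, 1 with the portal fibroblast covariate and 12 with the pericentral covariate, which was chosen after seeing the data. The cause was not tested. Same-numbered arrays of the groups deviated from their group means with correlations of -0.234 to 0.061, and 0 of 5 controls correlated best with its own number.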
